A study of Mus musculus with 12 samples.

Results

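The DNA replication machinery was followed here as 52 genes that encode the proteins which license replication origins, unwind DNA, synthesise both strands and reassemble chromatin behind the fork. The genes were chosen by symbol for these roles, and all 52 were found among the 55573 genes of the count table. All 52 also passed the filter on low counts that left 13836 genes for testing. They fell into 8 roles, namely origin licensing (9 genes), the MCM2-7 helicase (6), helicase activation (9), polymerases and primase (9), the clamp and its loader (6), lagging strand processing and RPA (6), fork protection (4) and chromatin assembly (3).

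RNA was sequenced from tumourspheres, which are clusters of cells grown in suspension, of 3 mouse breast tumour cell lines named A1005, A1129 and A1471. Every line had the genotype MMTV-Metmt;Trp53fl/+;Cre, so all groups, the controls included, carried a mutant Met transgene under the MMTV promoter, which is active in mammary epithelium, together with Cre and a floxed Trp53 allele. Tumourspheres received for 24 h the solvent DMSO, the Met inhibitor Crizotinib, the FGFR inhibitor PD173074, or both inhibitors (Combo). There was 1 library for each line and treatment, 12 in all, so that n = 3 lines for each treatment and each line stands for the tumour it was derived from. The comparisons ask how far blocking each receptor alone, and both together, altered the transcripts of the replication machinery.

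Replication origins are licensed when the origin recognition complex, Cdc6 and Cdt1 load the ring-shaped MCM helicase onto DNA. Kinases and loading factors then add Cdc45 and the GINS complex to switch the helicase on, and polymerases, held by the PCNA clamp, copy the opened strands. Transcription of many of these genes is known to rise as cells enter S phase under control of E2F factors, and their abundance is widely read as a sign of proliferation.

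Libraries held 13031492 to 17750476 counts, which gives a good precision for these genes, since the lowest count of any of the 52 in any library was 44. In the DMSO libraries the tumour-cell genes Vim and Met averaged 2890 and 4230 CPM (normalised counts scaled to library size), while the defining epithelial genes Krt5, Cdh1, Krt14 and Epcam were at 0 or at most 2.08 CPM in every library. Of 6 tumour-cell markers 5 passed the filter, Cdh2 being at or near 0, and they summed to 6410 to 9600 CPM under DMSO and 9330 to 11100 CPM under Combo. The members did not move alike. Twist1 fell from a mean of 113 CPM under DMSO to 53.2 CPM under Combo (edgeR adjusted p = 0.00156). Vim, Fn1, Zeb1 and Met did not pass, with or without the line as a block. Of 6 epithelial markers Krt8 and Krt18 passed the filter, and the list summed to 16.1 to 39.6 CPM under DMSO and 7.32 to 42.2 CPM under Combo. Krt18 was lower under Combo with the line as a block (edgeR adjusted p = 0.000225, and 0.5 without it), and Krt8 passed neither test. Of 4 endothelial markers none passed the filter, and of 6 immune markers Ptprc and Cd68 passed. Summed immune markers were higher under Combo than under DMSO in each line (31.5 to 42.2 CPM in A1005, 4.54 to 11.1 in A1129 and 5.53 to 8.53 in A1471), with Adgre1 and Cd3e at or near 0. Among them Cd68 passed with the line as a block (edgeR adjusted p = 0.00603, and 0.624 without it). Summed fibroblast markers, of which 5 of 6 passed the filter and Lum was at or near 0, were higher under Combo than under DMSO in each line. They ranged from 179 to 788 CPM under DMSO and from 365 to 2110 CPM under Combo. With the line as a block all 5 were higher under Combo (edgeR adjusted p from 9.61e-06 for Dcn to 0.0051 for Pdgfra), and none passed without it. The part of these other markers in the results below was not tested. In such bulk samples, fewer replicating cells and less replication transcript per cell cannot be told apart.

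Because the genes moved together, their promoters are shown before the values. RefSeq promoter windows of 300 bases (250 before and 50 after the start) were found for 43 of the 52 genes, some with more than 1 start, and a gene was counted when any of its windows held a word. The 6 stretches below belong to the genes with the largest fall under Combo, at most 1 for each complex, whose window holds an E2F-type word. Capitals mark that word, which was TTTCCCGC, TTTGGCGC, TTTCGCGC or TTTGCCGC on either strand. All are written 5′ to 3′ along the gene's strand and are on build GRCm38.p6. The Uhrf1 stretch (chr17:56304113-56304312, plus strand) and the Cdc6 stretch (chr11:98907982-98908150, plus strand) lie inside the annotated gene but in no annotated exon. Uhrf1 had 2 windows, and this stretch is from the downstream start. The other window (chr17:56303087-56303386), which holds the annotated gene start, had no E2F-type word. The only Cdc6 window (chr11:98907901-98908200) lies past the annotated gene start at 98907801, so the bases before that start were not searched. The Pola1 stretch (chrX:93632156-93632355, minus strand) and the Mcm5 stretch (chr8:75109309-75109508, plus strand) lie before the start and outside annotated exons, and the Mcm5 run holds 2 overlapping words. For Pole2 (chr12:69228162-69228191, minus strand) and Clspn (chr4:126556990-126557019, plus strand) the word lies just after the start, in an annotated exon, and 30 bases around it are given.
Uhrf1: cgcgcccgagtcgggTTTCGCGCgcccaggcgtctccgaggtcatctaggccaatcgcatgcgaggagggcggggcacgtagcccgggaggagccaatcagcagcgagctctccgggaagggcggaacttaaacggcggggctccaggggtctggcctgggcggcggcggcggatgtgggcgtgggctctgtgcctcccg
Cdc6: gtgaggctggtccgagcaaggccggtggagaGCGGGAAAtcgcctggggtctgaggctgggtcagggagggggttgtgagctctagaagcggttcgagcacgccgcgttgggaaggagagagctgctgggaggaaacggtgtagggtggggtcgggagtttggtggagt
Pola1: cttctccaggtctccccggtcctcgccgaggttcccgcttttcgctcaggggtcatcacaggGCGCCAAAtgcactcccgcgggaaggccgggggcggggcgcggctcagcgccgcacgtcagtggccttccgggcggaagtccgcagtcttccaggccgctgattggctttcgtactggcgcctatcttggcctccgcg
Pole2: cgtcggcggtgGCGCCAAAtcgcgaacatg
Clspn: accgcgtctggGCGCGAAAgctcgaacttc
Mcm5: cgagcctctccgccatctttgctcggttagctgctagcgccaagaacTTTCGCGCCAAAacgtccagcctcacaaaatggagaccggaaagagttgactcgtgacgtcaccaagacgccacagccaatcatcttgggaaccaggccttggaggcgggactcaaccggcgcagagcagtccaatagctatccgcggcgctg

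Combined inhibition lowered the replication machinery in every line and in every role. Transcripts of the 52 genes made up 0.452, 0.53 and 0.579% of all counts in the DMSO libraries of A1005, A1129 and A1471, and 0.18, 0.209 and 0.195% in the Combo libraries. By edgeR's quasi-likelihood test, at a threshold of 0.05 on the adjusted p, 43 of the 52 genes fell under Combo and 0 rose, where 8.28% of all tested genes fell. All 52 had a lower value under Combo in all 3 lines, a pattern seen for 32.5% of tested genes. The normalised counts of the 3 Combo and 3 DMSO libraries did not overlap for 48 genes, against 16.1% of tested genes with lower, non-overlapping values. The median log2 fold change was -1.50, that is a level 2.83-fold lower, beside 0.02 over all tested genes. Single genes ranged from -2.59 for Uhrf1 to -0.53 for Orc4, with 13 genes at least 4-fold lower, 30 between 2-fold and 4-fold lower, and 9 less than 2-fold lower.

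The 9 genes that did not pass the test were Orc4, Mcm7, Gins3, Gins4, Dbf4, Rfc1, Rfc3, Rpa3 and Chaf1b. With the cell line as a block all 52 genes fell, against 26.2% of tested genes. The unblocked count was 42 without A1005, 23 without A1129 and 18 without A1471, beside 8.42%, 1.71% and 0.77% of all tested genes. With all lines this share was 8.28%, so it dropped over all genes without A1129 or A1471, but not without A1005. With the block the count among the 52 was 52, 51 and 51, beside 24.5%, 20% and 17.4%. The lines had similar medians over the 52 genes, of -1.54, -1.53 and -1.71 for A1005, A1129 and A1471. A1471 had the largest fall for 35 genes, A1005 for 10 and A1129 for 7. Counts by role below are of genes that passed the unblocked test as lower, as did 8.28% of all tested genes. The map of changes by line displays falls of differing size, all in the same direction, under Combo beside the pale columns of each inhibitor alone.

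**Figure D1:**
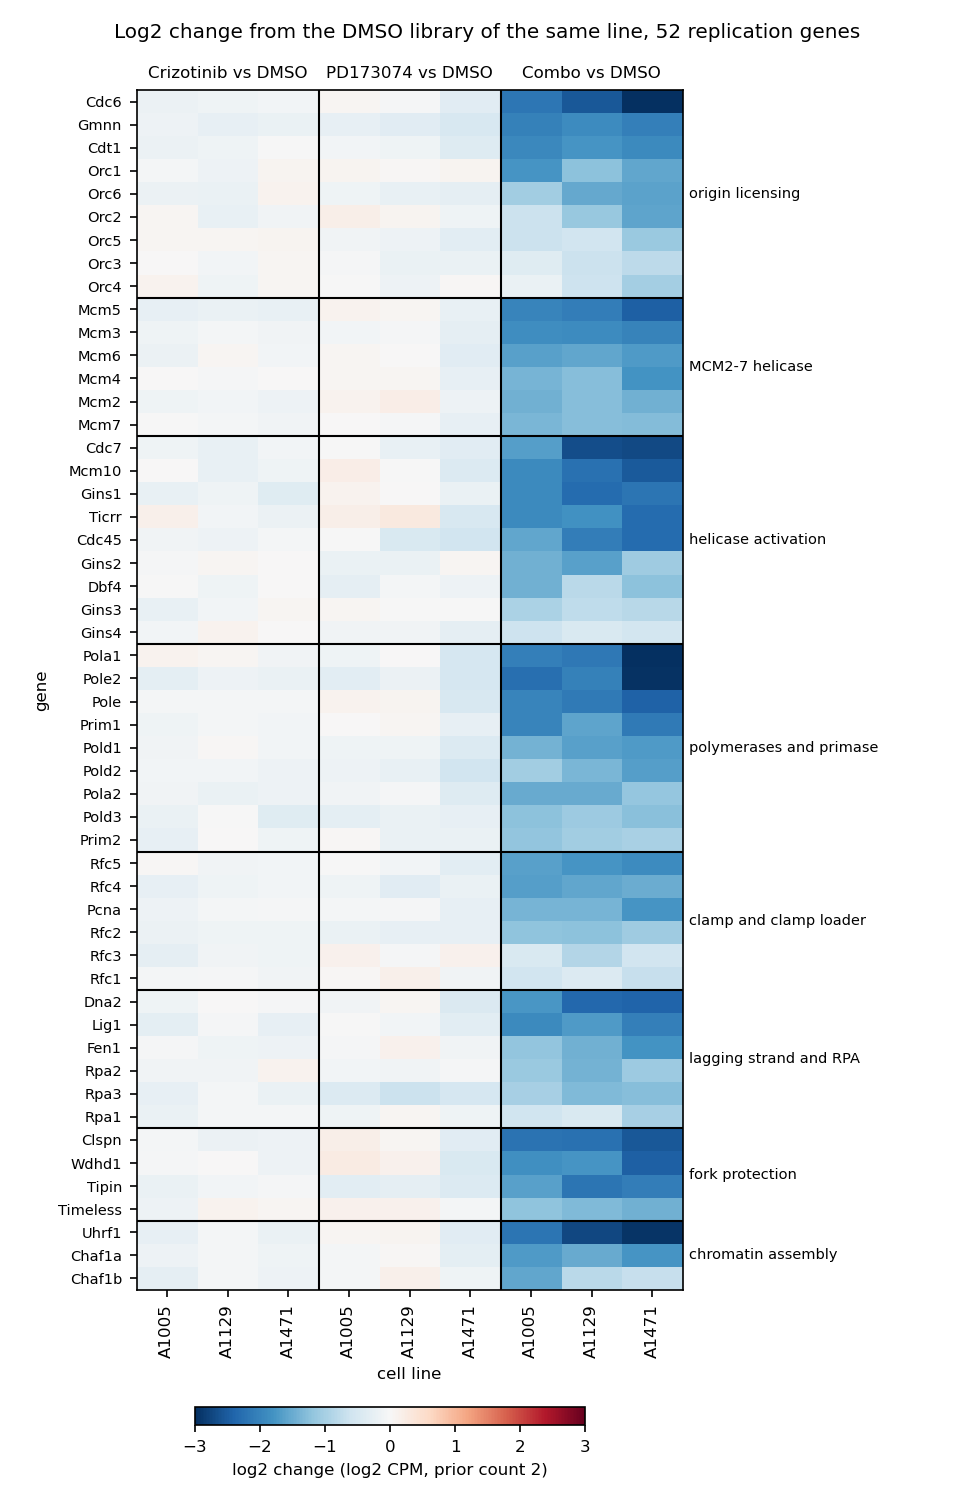
Log2 change from the DMSO library of the same line for each of the 52 genes (vertical axis, grouped by role and ordered by fitted change) in lines A1005, A1129 and A1471 under Crizotinib, PD173074 and Combo (horizontal axis). Blue is lower than DMSO; all 52 genes are blue in the 3 Combo columns, while the median change in a column of either inhibitor alone lies between -0.27 and -0.03.

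Among the origin licensing genes, 8 of 9 passed the unblocked test as lower under Combo, and all 9 passed with the block. The median change was -1.44 on the log2 scale. The 2 largest falls were in Cdc6, the ATPase that helps load MCM rings, and in Gmnn, which encodes Geminin, the inhibitor of Cdt1. Cdc6 (chr11:98907801-98923940) was at 58.8, 58.5 and 74.5 CPM in the DMSO libraries of A1005, A1129 and A1471, and at 13, 9.84 and 9.28 CPM under Combo. The groups were far apart, and the level was 5.96-fold lower (log2 fold change -2.58 ± 0.19 SE, n = 3 lines, edgeR adjusted p = 7.81e-05). Gmnn was at 71.0, 62.2 and 81.4 CPM under DMSO and at 17.3, 16.9 and 19.7 CPM under Combo (-1.99 ± 0.17 SE, edgeR adjusted p = 0.000124). Cdt1, the loading factor that Geminin restrains, fell by 1.87 on the log2 scale, so the loader and its inhibitor were lowered alike in size.

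The 6 subunits of the origin recognition complex, which marks origins on DNA, changed by different amounts. Orc1 (-1.50), Orc6 (-1.44) and Orc2 (-1.14) had the larger falls, whereas Orc5 (-0.76) and Orc3 (-0.59) fell less. Orc4 was at 64.1, 62.7 and 45.6 CPM under DMSO and at 56.2, 40.5 and 22.5 CPM under Combo, and these ranges overlapped. Its log2 fold change was -0.53 ± 0.30 SE (edgeR adjusted p = 0.285, and 0.00893 with the line as a block), and its values by line ran from -0.19 in A1005 to -1.02 in A1471. Relative to Orc4, the level of Orc1 per exon length was 0.676 to 0.822 in the DMSO libraries and 0.224 to 0.561 under Combo.

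All 6 MCM2-7 genes, which encode the ring of the replicative helicase, had values below DMSO in each line, and 5 passed the test. Their median log2 fold change was -1.56, and single genes ranged from -2.18 to -1.31. This range was slightly narrower than that of the origin recognition complex (0.87 against 0.97 on the log2 scale), a difference that was not tested. Mcm5 was at 144, 221 and 233 CPM under DMSO and at 36.5, 52.5 and 42.9 CPM under Combo (-2.18 ± 0.27 SE, edgeR adjusted p = 0.00106). Mcm3 went from 254, 246 and 341 CPM to 69.6, 66.9 and 85.0 CPM (-1.93 ± 0.19 SE, edgeR adjusted p = 0.000329). In both genes the highest Combo library lay well under the lowest DMSO library.

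Mcm7, the smallest change of the ring, was at 168, 262 and 376 CPM under DMSO and at 64.3, 108 and 153 CPM under Combo. The lines differed in level more than in response, since A1005, A1129 and A1471 gave log2 changes of -1.38, -1.28 and -1.30. Its log2 fold change of -1.31 ± 0.42 SE did not pass the unblocked test (edgeR adjusted p = 0.0638) and passed with the line as a block (2.88e-06). The Mcm7 gene also hosts the microRNAs Mir25 and Mir93, whose annotated bases cover 1.90% and 1.99% of its exon length. Mcm6 (-1.65), Mcm4 (-1.47) and Mcm2 (-1.39) fell by amounts in between.

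Genes that switch the helicase on had a median log2 fold change of -1.91. Of these, 6 of 9 passed the unblocked test and all 9 passed with the block. Cdc7, the kinase that phosphorylates MCM proteins, was at 28.3, 46.6 and 37.5 CPM under DMSO and at 8.95, 7.33 and 5.66 CPM under Combo (-2.36 ± 0.28 SE, edgeR adjusted p = 0.000919). Mcm10, needed for helicase activation, went from 54.2, 58.3 and 88.5 CPM to 14.3, 12.2 and 15.4 CPM (-2.26 ± 0.25 SE, edgeR adjusted p = 0.000526). The Combo values of both genes lay closer together in CPM than their DMSO values, and neither gene's groups overlapped. Ticrr (-2.01), the Treslin protein that helps recruit Cdc45, and Cdc45 itself (-1.91) also fell.

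The 4 GINS subunits, which join Cdc45 and MCM in the active helicase, were spread over the widest range of any complex examined, 1.62 on the log2 scale. Gins1 (-2.16) and Gins2 (-1.40) fell, whereas Gins3 and Gins4 did not pass the unblocked test. The exons of Gins2 share 67.3% of their length with the opposite-strand gene Gse1. Gins4 was at 52.6, 70.1 and 70.4 CPM under DMSO and at 34.1, 51.1 and 47.8 CPM under Combo, so the groups were close but did not overlap. Its log2 fold change was -0.54 ± 0.22 SE (edgeR adjusted p = 0.137, and 0.000508 with the block). Gins3 differed more between lines than between treatments, with 10.1, 27.4 and 22.7 CPM under DMSO and 5.17, 16.2 and 12.6 CPM under Combo (edgeR adjusted p = 0.387, and 0.000239 with the block). Per exon length, the ratio of Gins1 to Gins4 was 0.195 to 0.338 in the DMSO libraries and 0.0619 to 0.136 in the Combo libraries.

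Dbf4, the regulatory partner that activates the Cdc7 kinase, was at 105, 204 and 142 CPM under DMSO and at 38.6, 115 and 60.6 CPM under Combo. These ranges overlapped, and the log2 fold change of -1.07 ± 0.45 SE did not pass the unblocked test (edgeR adjusted p = 0.142, and 6.09e-05 with the block). The ratio of Cdc7 to Dbf4 per exon length was 0.474 to 0.564 under DMSO. Under Combo it was 0.133 in A1129 and 0.195 in A1471 but 0.483 in A1005, within the DMSO range.

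Every one of the 9 polymerase and primase genes fell, with a median of -1.58. Pola1, the catalytic subunit of the polymerase that starts each strand with primase, was at 113, 127 and 225 CPM under DMSO and at 27.2, 28.8 and 27.8 CPM under Combo (-2.47 ± 0.31 SE, 5.56-fold lower, edgeR adjusted p = 0.00109). Pole2, an accessory subunit of the leading strand polymerase epsilon, went from 30.8, 20.0 and 26.9 CPM to 6.28, 4.83 and 3.32 CPM (-2.42 ± 0.29 SE, edgeR adjusted p = 0.000919). Pole, the catalytic subunit of the same enzyme, fell by 2.23 on the log2 scale. The Combo values of Pola1 were nearly equal in the 3 lines although A1471 had far more under DMSO.

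Genes of the lagging strand polymerase delta had smaller changes than those of polymerase epsilon, with Pold1 at -1.58, Pold2 at -1.41 and Pold3 at -1.19 against -2.23 and -2.42 for the epsilon genes. This order was not tested. Prim1 (-1.88), the primase catalytic subunit, and Pola2 (-1.38) fell, and Prim2, the other primase subunit, had the smallest change. Prim2 was at 43.4, 44.0 and 52.9 CPM under DMSO and at 19.0, 21.3 and 27.0 CPM under Combo, without overlap (-1.06 ± 0.18 SE, edgeR adjusted p = 0.00474). The ratio of Pola1 to Prim2 per exon length was 1.76 to 2.86 under DMSO and 0.695 to 0.966 under Combo.

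Of the sliding clamp and the loader that places it on DNA, 4 of 6 genes passed the unblocked test and all 6 passed with the block. Their median was -1.33. Rfc5 was at 64.1, 92.7 and 106 CPM under DMSO and at 20.7, 26.9 and 28.4 CPM under Combo (-1.79 ± 0.24 SE, edgeR adjusted p = 0.00158). Rfc4 went from 57.5, 48.3 and 44.6 CPM to 18.1, 16.3 and 15.7 CPM (-1.59 ± 0.17 SE, edgeR adjusted p = 0.000538). Pcna, the clamp, was at 269, 258 and 248 CPM under DMSO and at 102, 98.4 and 72.7 CPM under Combo (-1.50 ± 0.15 SE, edgeR adjusted p = 0.000396). Pcna also had the highest level per exon length of the 52 genes, 108 CPM per kilobase under DMSO, and the annotation holds 2 processed copies of it with which reads could be shared.

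Rfc1, the large subunit of the clamp loader, changed least among them, from 132, 204 and 205 CPM to 88.0, 153 and 127 CPM. The groups overlapped, and the log2 fold change was -0.56 ± 0.29 SE (edgeR adjusted p = 0.236, and 0.000346 with the block). Rfc3 had a similar value of -0.62 ± 0.23 SE (edgeR adjusted p = 0.108, and 0.000852 with the block), and Rfc2 fell by 1.15 on the log2 scale. The ratio of Rfc5 to Rfc1 per exon length was 0.584 to 0.663 under DMSO and 0.227 to 0.304 under Combo.

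Of the lagging strand enzymes and RPA, the complex that coats single-stranded DNA, 5 of 6 genes passed the unblocked test. All 6 passed with the block, and the median was -1.36. Dna2, a nuclease that trims flaps, was at 16.6, 20.7 and 36.3 CPM under DMSO and at 4.84, 3.95 and 6.71 CPM under Combo (-2.25 ± 0.42 SE, edgeR adjusted p = 0.00707). Lig1, the ligase that seals Okazaki fragments, went from 123, 115 and 124 CPM to 32.6, 34.9 and 30 CPM (-1.89 ± 0.12 SE, edgeR adjusted p = 4.3e-05), with hardly any spread between lines. Fen1, the flap endonuclease, fell by 1.49 on the log2 scale, with 78.8% of its exon length shared with an antisense transcript.

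Rpa1 was at 231, 193 and 264 CPM under DMSO and at 152, 141 and 133 CPM under Combo, and this fall, the smallest of the role, passed the test (-0.69 ± 0.17 SE, edgeR adjusted p = 0.0221). Rpa2 fell by 1.23. Rpa3 was at 56.9, 34.5 and 34.2 CPM under DMSO and at 28.6, 13.7 and 14.1 CPM under Combo, a difference that passed only with the block (-1.15 ± 0.38 SE, edgeR adjusted p = 0.075, and 3.37e-05 with the block). The 3 enzymes had larger falls than the 3 RPA subunits, a difference that was not tested.

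The 4 fork protection genes, which keep helicase and polymerases coupled and pass on checkpoint signals, all fell, and their median of -2.0 was the lowest of the 8 roles. Clspn, which encodes Claspin, was at 54.5, 62.2 and 64.4 CPM under DMSO and at 11.6, 13 and 10.9 CPM under Combo (-2.35 ± 0.15 SE, 5.11-fold lower, edgeR adjusted p = 4.3e-05). Wdhd1, the And-1 protein that links helicase and polymerase alpha, went from 45.6, 75.8 and 94.1 CPM to 12.6, 22.2 and 17.3 CPM (-2.05 ± 0.35 SE, edgeR adjusted p = 0.00459). The DMSO and Combo groups of both genes were apart.

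Tipin and Timeless encode partners in 1 complex. Tipin was at 80.8, 80.4 and 93.4 CPM under DMSO and at 26.1, 17.4 and 22.0 CPM under Combo (-1.96 ± 0.17 SE, edgeR adjusted p = 0.000168). Timeless went from 46.1, 37.2 and 43.8 CPM to 19.8, 14.7 and 16.1 CPM (-1.33 ± 0.17 SE, edgeR adjusted p = 0.00115). Both pairs of groups were clearly apart, and the ratio of Tipin to Timeless per exon length was 5.74 to 7.07 under DMSO and 3.88 to 4.49 under Combo. This ratio was also below every DMSO library under PD173074 alone, at 4.25, 5.29 and 5.56, the A1005 value being under that line's Combo value of 4.32. For the other 5 ratios given above, each line's Combo value lay below its values under either inhibitor alone.

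Chromatin assembly was represented by 3 genes, of which 2 passed the unblocked test and all 3 passed with the block. Uhrf1, which directs maintenance methylation to newly copied DNA, had the largest fall of all 52 genes. It was at 209, 186 and 233 CPM under DMSO and at 46.2, 27.6 and 30.4 CPM under Combo, without overlap (-2.59 ± 0.21 SE, 6.02-fold lower, edgeR adjusted p = 0.000104). Chaf1a, the large subunit of the histone chaperone CAF-1, went from 138, 125 and 171 CPM to 42.6, 43.4 and 49.7 CPM (-1.68 ± 0.16 SE, edgeR adjusted p = 0.000243). Its exons share 52.5% of their length with the opposite-strand gene Ubxn6.

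Chaf1b, the middle subunit of CAF-1, was at 39.8, 54.6 and 47.3 CPM under DMSO and at 13.3, 31.2 and 29.1 CPM under Combo. The groups did not overlap, but A1005 differed from the other lines, with a log2 change of -1.57 against -0.80 and -0.70. Its log2 fold change of -0.94 ± 0.33 SE passed only with the block (edgeR adjusted p = 0.0851, and 0.000618 with the block).

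**Figure D2:**
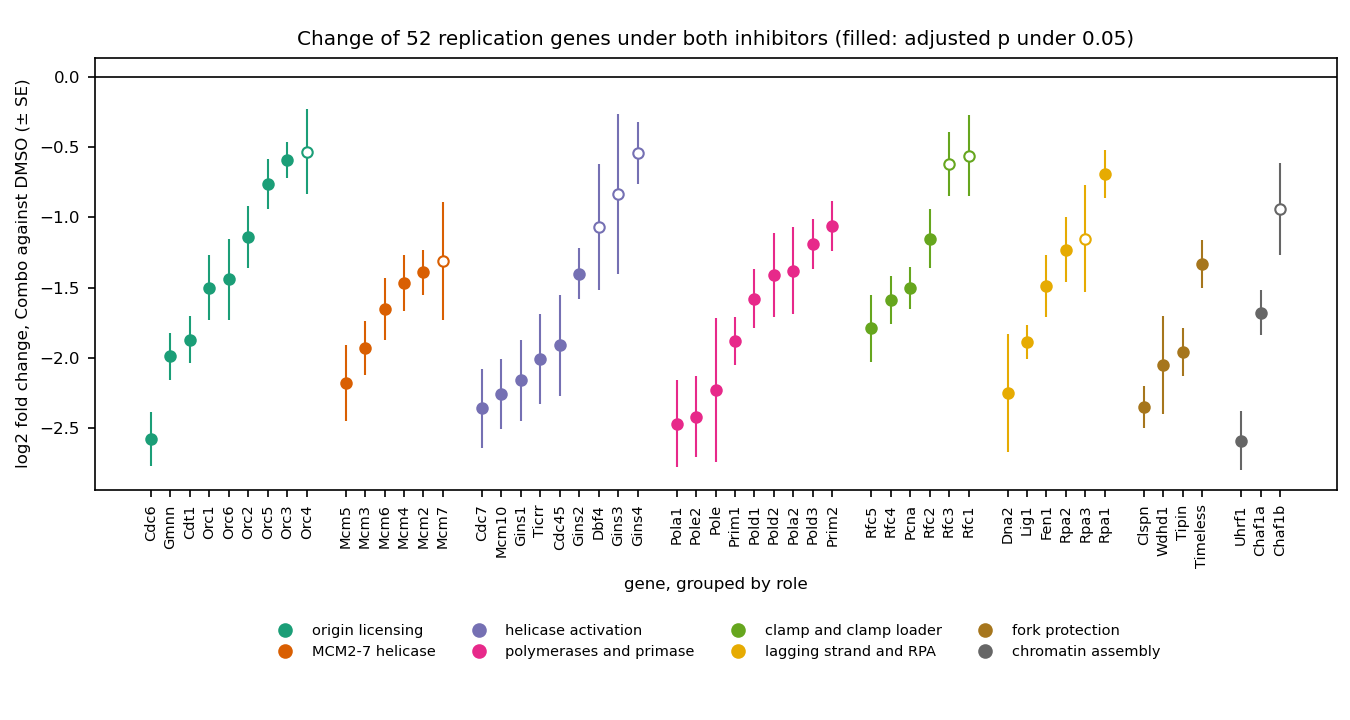
Fitted log2 fold change of each of the 52 genes under Combo against DMSO (vertical axis, points with SE bars, n = 3 lines per group), grouped by role along the horizontal axis. Filled points passed edgeR's test at an adjusted p under 0.05; the 9 open points include the smallest changes, and within most roles the genes span about 1 log2 unit or more.

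**Figure D3:**
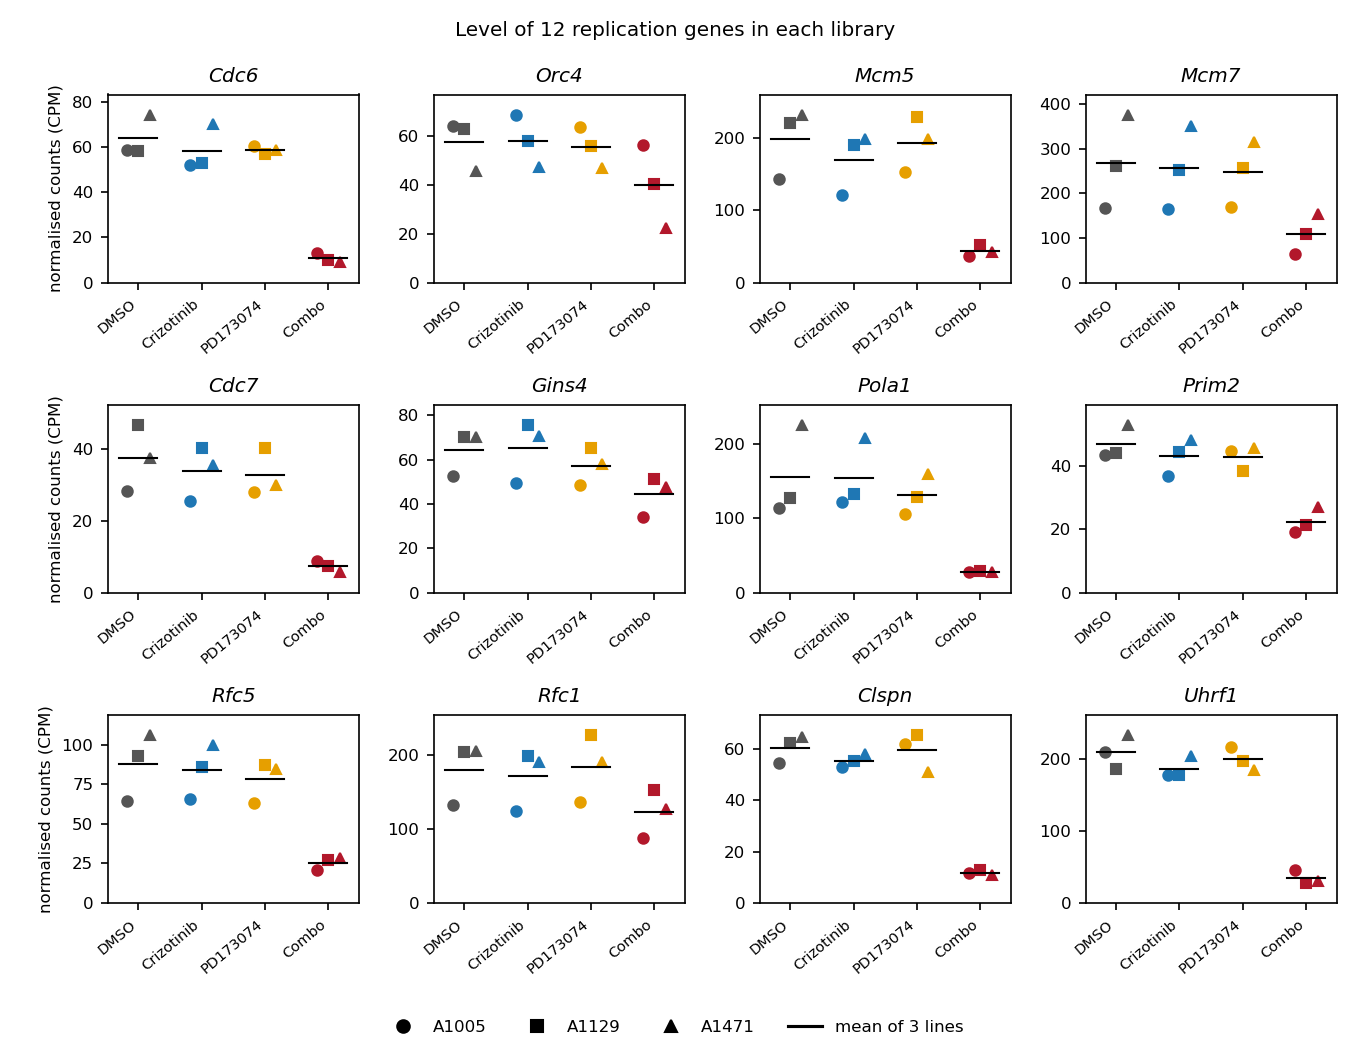
Normalised counts (CPM, vertical axes from 0) of 12 genes in each of the 12 libraries, with symbols for lines A1005, A1129 and A1471 and a bar for the mean of the 3 lines. Under Crizotinib and PD173074 the points stay near those of DMSO, and under Combo they drop in every line, to 9.28 to 13 CPM for Cdc6 but only to 22.5 to 56.2 CPM for Orc4.

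Levels per exon length, which allow genes to be compared with each other, were highest under DMSO for Pcna (108 CPM per kilobase), Pold2 (90.8) and Mcm3 (74.8) and lowest for Ticrr (3.17) and Dna2 (4.18). Under Combo they ranged from 0.784 for Ticrr to 38.0 for Pcna, so that Pcna and Ticrr kept the ends of the order. Gins4 stood at 47.7 under DMSO, near Uhrf1 (49.2) and Mcm5 (49.9). Under Combo it was at 32.8, above Uhrf1 (8.16) and Mcm5 (11.0), the spread of their falls having pulled apart genes of like level.

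A wider list held 26 replication factors outside the 52 genes. Of these, 13 fell and 0 rose under Combo, where 8.28% of all tested genes fell. The median log2 fold change was -0.92, beside 0.02 over all tested genes. With the line as a block 24 fell, against 26.2% of tested genes. The largest falls were in Top2a, the topoisomerase that untangles copied DNA (-2.55 ± 0.20 SE, edgeR adjusted p = 0.000104), and Asf1b, a histone chaperone (-2.19 ± 0.29 SE, edgeR adjusted p = 0.0014). Mcm9 and Chtf8, the 2 factors that did not pass even with the block, had log2 fold changes of -0.08 and 0.13. Chtf8 had 2 entries in the count table, and its value is that of the first.

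Crizotinib alone gave no call among the 52 genes (0 by edgeR, as for 0% of all tested genes, 0 by DESeq2, against 0.00723%, and 0 at an unadjusted edgeR p under 0.05, against 0.13%). Values were slightly below DMSO for 47 genes, the median log2 fold change being -0.10 with no gene beyond 0.23 in either direction. The 3 line medians were -0.13, -0.08 and -0.10. All 3 lines were lower for 31 of the 52 genes, beside 18.5% of tested genes, and the libraries did not overlap for Pcna and Lig1, beside 0.853% of tested genes with lower values. Pcna was at 240, 247 and 242 CPM under Crizotinib, just under its DMSO values, and Lig1 at 100, 112 and 105 CPM. With the line as a block no gene passed either (0% of tested genes), and the lowest edgeR adjusted p was 1.

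PD173074 alone likewise gave no call among the 52 genes (0 by edgeR, as for 0% of all tested genes, and 0 by DESeq2, against 0.123%), and 1 gene, Gmnn, had an unadjusted edgeR p under 0.05 (0.0457), against 0.694% of tested genes with lower values. The median log2 fold change was -0.12 and the lowest was that of Rpa3, at -0.50 ± 0.38 SE. With the line as a block no gene passed, where 0.52% of all tested genes fell, and the lowest edgeR adjusted p of the 52 was 0.0513 for Rpa3. Gmnn was at 59.7, 49.2 and 57.8 CPM under PD173074, below each DMSO library, with a log2 fold change of -0.36 ± 0.16 SE. It was 1 of 3 genes, with Orc3 and Tipin, whose libraries did not overlap, beside 3.07% of tested genes with lower values.

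Under PD173074 the lines did not move evenly. Over the 52 genes, A1005 and A1129 each had a median of -0.03 and A1471 a median of -0.27, and 31, 31 and 48 genes respectively lay below DMSO. Ticrr was at 26.5, 45.9 and 24.7 CPM under PD173074 and at 23.3, 37.5 and 34.3 CPM under DMSO, higher in A1005 and A1129 and lower in A1471. Each line had 1 library per treatment, and whether A1471 differed was not tested.

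Against either inhibitor alone, Combo lowered the machinery by nearly as much as against DMSO. Against Crizotinib 43 of 52 genes fell (7.78% of tested genes), the median being -1.44, and the libraries did not overlap for 46 genes (16.1% of tested genes). Against PD173074 38 fell (3.93% of tested genes), with a median of -1.43 and no overlap for 46 (12.7% of tested genes). No gene rose. All 52 genes were lower in all 3 lines in each comparison, beside 31.8% of tested genes against Crizotinib and 29.5% against PD173074. With the line as a block all 52 fell, beside 26% and 20.2%. Genes that did not pass against Crizotinib were Orc4, Mcm7, Gins3, Gins4, Dbf4, Rfc1, Rfc3, Rpa3 and Chaf1b. Against PD173074 the 14 that did not pass also included Orc3, Orc5, Pola2, Pold2 and Rpa1. These comparisons share the Combo libraries with the comparison against DMSO. Without A1005, A1129 and A1471 the unblocked count against Crizotinib was 40, 19 and 15, beside 7.64%, 1.76% and 0.685% of tested genes. Against PD173074 it was 32, 7 and 12, beside 3.77%, 0.435% and 0.428%.

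The joint change exceeded the sum of the single changes on the log2 scale for all 52 genes. This departure from additivity, tested as 1 contrast over the 4 treatments, had a median of -1.39 and passed for 18 genes, all lower, against 0.911% of tested genes. With the line as a block it passed for 47 genes, against 10.7% of tested genes, and by DESeq2 for 32, against 2.78%. Without any 1 of the lines A1005, A1129 and A1471 the unblocked test called 0 of the 52 and 0% of all tested genes lower. With the block it called 43, 35 and 36, beside 8.81%, 3.24% and 2.7% of tested genes. The 18 genes included Uhrf1 (-2.35 ± 0.28 SE, edgeR adjusted p = 0.00489), Cdc6 (-2.33 ± 0.26 SE, edgeR adjusted p = 0.00393), Clspn (-2.20 ± 0.20 SE, edgeR adjusted p = 0.00219) and Lig1 (-1.57 ± 0.17 SE, edgeR adjusted p = 0.00341).

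By role, departures passed for 3 licensing genes (Cdc6, Cdt1 and Gmnn), 3 MCM genes (Mcm2, Mcm3 and Mcm5), 3 activation genes (Mcm10, Gins2 and Cdc7) and 2 polymerase genes (Pola1 and Prim1). They also passed for Pcna, Lig1, 3 fork protection genes (Timeless, Tipin and Clspn) and 2 chromatin assembly genes (Chaf1a and Uhrf1). The 5 genes that did not pass even with the block were Orc3, Orc4, Gins4, Rpa1 and Rpa3, with departures of -0.39 to -0.50. For Cdc6 the single changes were -0.13 under Crizotinib and -0.12 under PD173074, beside -2.58 under both. For Timeless they were close to 0, beside -1.33 under both.

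**Figure D4:**
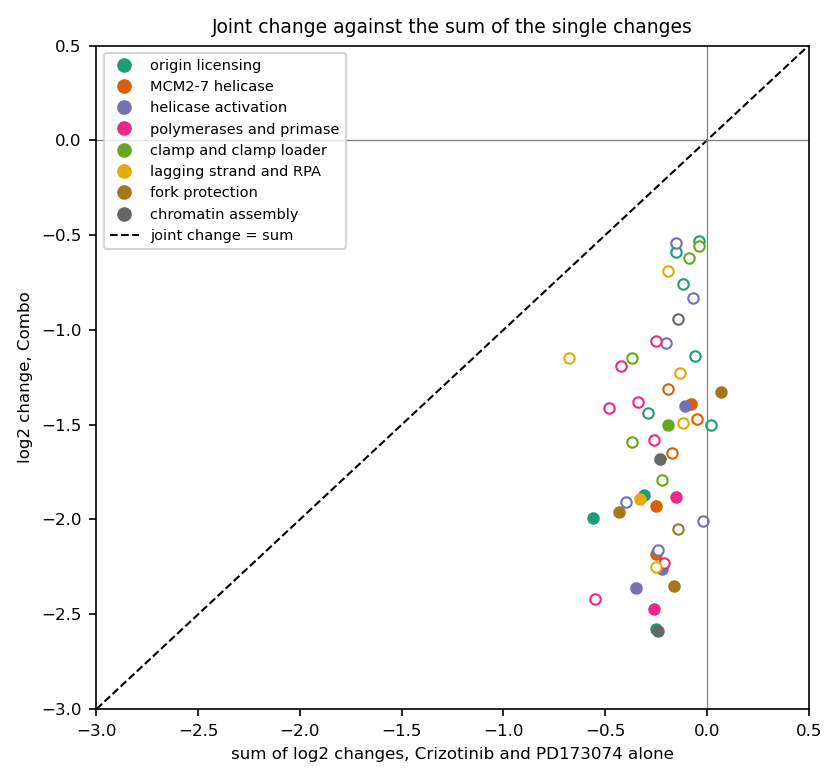
Log2 fold change under Combo (vertical axis) against the sum of the log2 fold changes under Crizotinib and PD173074 alone (horizontal axis), each against DMSO, for the 52 genes coloured by role; the dashed line marks equality. Every point lies below the line, and filled points are the 18 genes whose departure passed edgeR's test at an adjusted p under 0.05.

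The promoter words shown above were compared with the changes as a description. An E2F-type word lay in the window of 17 of the 43 genes (39.5%), against 2.6% of the 27025 genes in the RefSeq table. That table, also used for the words below, was not limited to genes that passed the filter on low counts, whereas all 43 passed. The median log2 fold change under Combo was -1.87 for the 17 genes with an E2F-type word, within a range of -2.59 to -0.59. It was -1.42 for the 26 genes without the word, within a range of -2.36 to -0.53. The ranges overlapped almost fully, and Cdc7 and Mcm10 had no word in the window despite falls of 2.36 and 2.26. A CCAAT box (CCAAT, either strand) lay in the window of 25 of 43 genes (58.1%, against 41.1% of all genes), with medians of -1.50 with it and -1.58 without. The cell cycle homology element (TTTGAA, either strand) lay in that of 7 of 43 genes (16.3%, against 20.2% of all genes), with medians of -1.41 and -1.58.

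**Figure D5:**
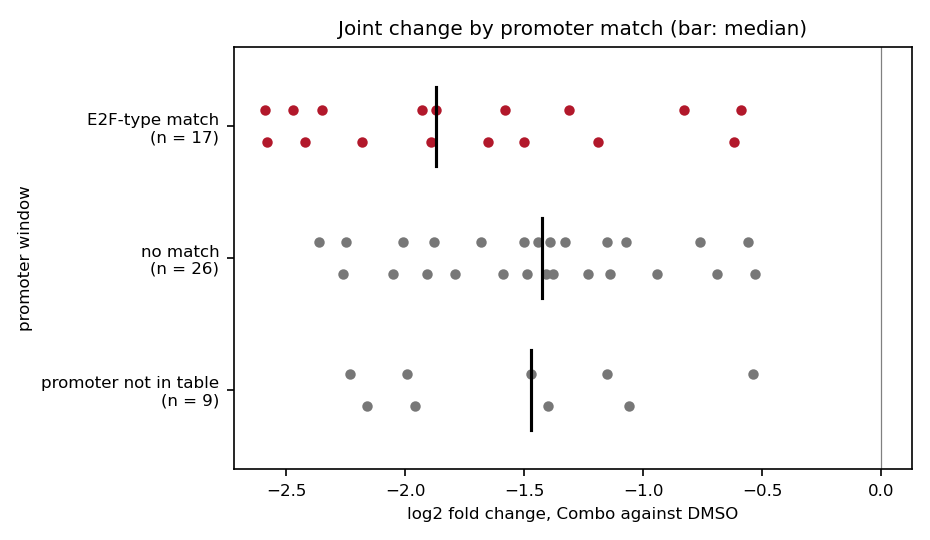
Log2 fold change under Combo against DMSO (horizontal axis) of the 52 genes, split by whether the RefSeq promoter window holds an E2F-type word (17 genes), holds none (26) or was not in the table (9); the bars are medians. Genes with the word centre on -1.87 and those without on -1.42, and both groups spread over most of the range.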

How the data were processed

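The deposited table holds raw counts per gene, made by the authors with bcl2fastq, STAR and HTSeq on the mouse build mm10, per the labels and the study's methods. Versions, the gene annotation release and the strand setting of the counting are not given in the sources used here. Genes whose exons overlap another gene (20 of the 52) could therefore hold its counts. No normalization preceded deposit.

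Genes with low values were removed by filterByExpr (count minimum 10, total minimum 15), and counts were scaled by TMM and fitted over all 12 libraries with edgeR 4.0.16 (quasi-likelihood test, R 4.3.3), with treatment as the only term, following the study's unpaired analysis. P-values were adjusted by Benjamini-Hochberg over 13836 genes, with a threshold of 0.05. Changes by line used log2 CPM with a prior count of 2. Levels per exon length used exons of GENCODE M21, which is on the mm10 coordinates. CPM are TMM-scaled. DESeq2 1.42.0 and other settings were alternatives. The code was tested on simulated data, where the unblocked fit had low power when lines differed in level.

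Groups came from the labels. Lines served as replicates, with 1 library per line and treatment. P-values without the block rest on the spread between these lines. Those with the line as a block rest on the spread left after differences in level between lines. No libraries were identical in 66 pairs. The pairing comes from the cell line. Deviations from group means correlated at 0.766 to 0.962 between libraries of 1 line (18 pairs, mean 0.871). Between lines the mean correlation was -0.422 (36 pairs). Its negative sign follows from subtracting the group means, since the deviations cancel out within a group.

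The 52 genes, the roles, the 26 other factors and the markers were chosen with earlier results of these data known. Values in every library were given for the 2 largest and the smallest change of each role under Combo (every gene in roles of 3 or 4), and for most genes that did not pass. Pcna under Combo, the genes shown under single inhibitors and the pairs given as ratios were chosen after their values were seen.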

Additional observations from a re-analysis of the deposited data

Results flagged for a closer look

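Under the same single-inhibitor comparison, the median log2 change of some roles had opposite signs in different lines. For the MCM2-7 helicase genes under PD173074, A1005, A1129 and A1471 gave 0.06, 0.03 and -0.25. Fork protection genes gave 0.15, 0.10 and -0.37 in the same order, and chromatin assembly genes gave -0.05, 0.08 and -0.30. For origin licensing genes under Crizotinib the medians were -0.07, -0.14 and 0.06. Each line had 1 library per treatment, so these differences between lines were not tested. Groups of 3 libraries were too small to look for single libraries that stand apart.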

How the results depend on the processing

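No gene of the 52 changed direction under any alternative for Combo against DMSO, and the median log2 fold change stayed between -1.45 and -1.58. A further limit of 1.5 on the size of the log2 fold change left 26 of the 52 genes against DMSO, 24 against Crizotinib and 24 against PD173074, beside 3.17%, 3.05% and 1.83% of all tested genes. Leaving out each line in turn gave 18 to 42 genes against DMSO, 15 to 40 against Crizotinib and 7 to 32 against PD173074, beside 0.77 to 8.42%, 0.685 to 7.64% and 0.428 to 3.77% of tested genes. The share of all genes called lower dropped as well, except against DMSO without A1005 (8.42%, beside 8.28% with all lines). With the libraries of the compared groups alone, 19 genes passed against PD173074 (0.905% of tested genes). The departure from additivity passed for 47 genes with the replicate block, 32 by DESeq2 and 9 without the filter on low counts, beside 10.7%, 2.78% and 0.232% of tested genes. Leaving out each line gave 0 genes each time without the block (0% of tested genes) and 43, 35 and 36 with it (8.81%, 3.24% and 2.7%). The block changed no other call on the 52 genes than those given in the report. Scaling by total counts alone was added after seeing the data and, like DESeq2 size factors, changed no call against DMSO. The causes of these shifts were not tested. With 3 lines per treatment, small changes under a single inhibitor may go undetected.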
